A study of Homo sapiens with 2 samples.

Results

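Small nucleolar RNA genes and their Cajal body relatives were followed in HT1080 cells, an established human fibrosarcoma line, on 1 GeneChip Human Gene 1.0 ST array per coating. The cells had spent 24 h in wells coated with rLCC111, a recombinant coiled-coil part of laminin-111 built from mouse chains and made in cultured human cells, or in wells coated with BSA, an albumin that served as the control coating. Both arrays came from total RNA of the same line, no gene was altered, and each coating is represented by a single sample. Members were taken by name alone, as genes whose symbol starts with SNORA, SNORD or SCARNA and a digit, and 192 of the 18417 genes measured met this rule. Of these, 61 are H/ACA genes (SNORA), 115 are C/D genes (SNORD) and 16 are genes for small Cajal body RNAs (SCARNA). Where a gene had several sequences the one brightest on average was used. Levels are on the log2 scale of the deposited values, and a difference is the level on rLCC111 minus the level on BSA. With 1 array per coating no difference has a replicate check, no p-value is given, and whether the groups overlap cannot be asked.

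Small nucleolar RNAs guide enzymes to ribosomal RNA. C/D RNAs, named after a pair of short sequence boxes, carry the methylase fibrillarin and direct 2′-O-methylation, and H/ACA RNAs carry dyskerin and direct the change of uridine to pseudouridine, while a few members of either type help to cut the rRNA precursor. Cajal body RNAs do the same for the RNAs of the spliceosome. In human cells most are not transcribed alone: they lie in introns of host genes, many of which encode ribosomal proteins or translation factors, and are trimmed out of the excised intron, so that 1 transcript can yield both an mRNA and a guide RNA.

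The arrays had median levels of 7.12 on rLCC111 and 7.04 on BSA over 33297 sequences. A level of 6.61 was taken as the limit below which a gene cannot be told from a silent one: 394 genes for sensory receptors were averaged over both arrays, and this is the 95th percentile of the result. In 113 of the 192 members the brighter array lay above this limit, and 105 were above it on both. Of 7 mesenchymal marker genes fixed for the line 6 were above the limit, vimentin at 12.98 on rLCC111 and 13.05 on BSA among them and S100A4 the exception. Of 4 epithelial, 3 endothelial, 2 blood and 2 neuronal markers, KRT19 and RBFOX3 alone were above it. The RNA was isolated on RNeasy Micro columns. Columns of this kind are known to retain RNAs of snoRNA length poorly, and whether a signal came from the mature RNA, its precursor or the host intron was not tested.

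Differences among the members were mostly small, and which side of 0 held more of them depended on the scaling. The median over the 192 genes was 0.03, with 110 above 0, 71 below and 11 at exactly 0, beside a median of 0.00 over all 18417 genes. After median centring 74 lay above 0 and 118 below, and after quantile normalization 87 above and 105 below. The median of all genes was then itself below 0, at -0.08 and -0.06. After removal of a trend with level 99 members lay above 0 and 93 below, with the median of all genes at -0.02. The median of the members was above that of all genes by 0.04 after quantile normalization and by 0.03 after removal of the trend. Their spread was wider than that of genes at large, with an SD of 0.28 and an interquartile range of 0.22, beside 0.20 and 0.18 over all genes. For 189 microRNA genes these values were 0.24 and 0.16, so an SD above that of all genes is not particular to the members. At least 2-fold higher on rLCC111 were 2 members, or 1.04% of them, where 0.239% of all genes passed, and at least 2-fold lower was 1 member, or 0.521%, where 0.0869% of all genes passed. At the smaller threshold of 1.5-fold, 9 members (4.69%) were higher, beside 1.08% of all genes, and 3 members (1.56%) were lower, beside 0.543%. Of these 9 higher members 3 were dim on both arrays, and the count was 6 after median centring or quantile normalization. Of 189 microRNA genes 3 were at least 2-fold and 6 (3.17%) at least 1.5-fold higher, with 0 lower at either fold. Of the 394 sensory receptor genes 2 were at least 2-fold and 10 (2.54%) at least 1.5-fold higher, also with 0 lower. A larger share of higher genes than over all genes is thus not particular to the members. These shares are a description of both arrays, and members of 1 host share a transcript.

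**Figure D1:**
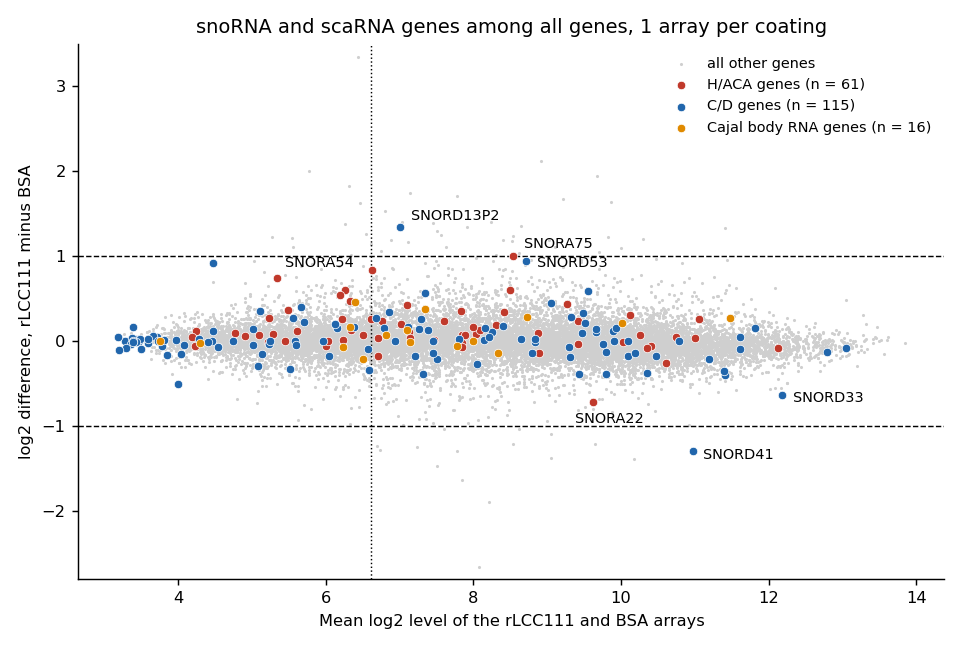
Difference in log2 level, rLCC111 minus BSA (vertical), against the mean log2 level of both arrays (horizontal), for 192 members in colour by type and all other genes in grey. The dashed lines mark a 2-fold difference and the dotted line the limit of 6.61; SNORD13P2 and SNORA75 lie on or above the upper dashed line and SNORD41 below the lower one.

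H/ACA genes had a higher median difference than C/D genes. The median difference was 0.09 over the 61 H/ACA genes, of which 45 lay above 0 and 14 below, and 0.00 over the 115 C/D genes, of which 56 lay above 0 and 51 below. Above 0 were thus 73.8% of H/ACA genes and 48.7% of C/D genes, beside 46.2% of all genes. The difference between both medians was 0.09, and it was 0.08 both for members above the limit on at least 1 array and after the 46 tandem copies of the imprinted clusters had been left out of the C/D genes. How many H/ACA genes lie above 0 depends on the scaling. After median centring, where the median of all genes is -0.08, 32 of 61 H/ACA genes and 35 of 115 C/D genes were above 0. Centring lowers all differences alike, so the count above the median of all genes, 45 of 61 H/ACA genes, could not change under it. After quantile normalization 48 of 61 H/ACA genes and 62 of 115 C/D genes lay above the median of all genes. The 16 Cajal body RNA genes had a median of 0.04, from -0.21 to 0.46, with 9 above 0 and 6 below, and 7 of 16 above 0 after median centring.

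The values are also given by level. Of 22 H/ACA genes with a mean level up to the limit 17 lay above 0, and of 25 between the limit and 9 it was 21, with a median of 0.13. Of the 14 above 9 there were 7 on either side, with a median of 0.01. C/D genes in the middle range had 19 of 27 above 0 and a median of 0.05, and those above 9 had 13 of 33 and a median of -0.07, beside medians of 0.01 and -0.03 over all genes in these ranges. These ranges were chosen after the values had been seen. Beside them, 189 microRNA genes, another class of short RNAs, had a median of 0.05, with 120 above 0 and 45 below, and the 394 sensory receptor genes a median of 0.00, with 196 above 0 and 120 below. What part a class-wide shift of short or dim sequences has in the H/ACA median was not tested.

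**Figure D2:**
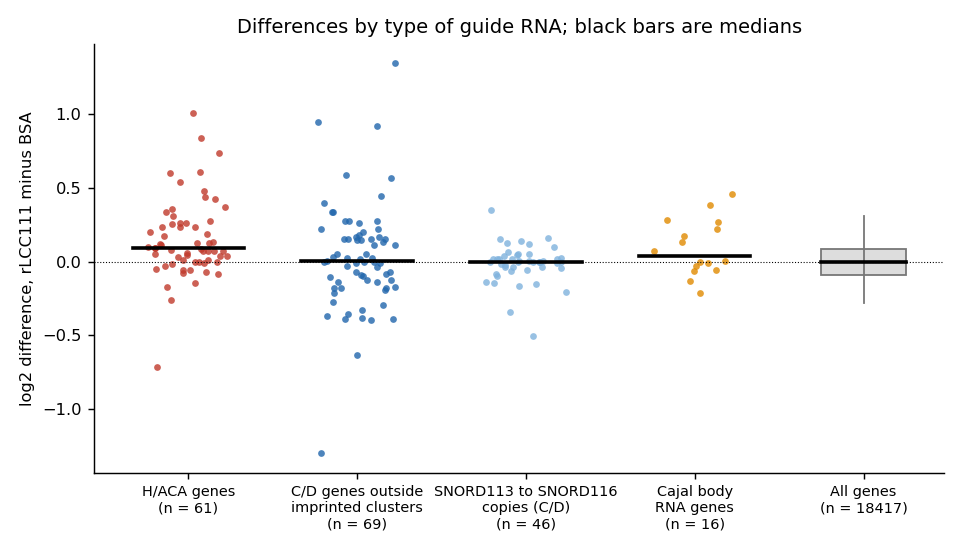
Difference in log2 level, rLCC111 minus BSA (vertical), for each member by type, with black bars at the medians. The grey box of all genes spans the 25th to the 75th percentile (-0.09 to 0.09) and its line the 5th to the 95th (-0.28 to 0.31). The H/ACA median lies at 0.09 and those of both C/D groups at 0.00. The tandem copies are the tightest group with an SD of 0.13, and 38 of these 46 have neither array above the limit.

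Among the C/D RNAs that help to process the rRNA precursor, 1 copy of U13 had a larger difference than its parent gene. SNORD13, which encodes the U13 RNA that pairs with the small-subunit rRNA and assists its acetylation by NAT10, had levels of 13.00 on rLCC111 and 13.09 on BSA. Its copy SNORD13P3 had 12.73 on rLCC111 and 12.85 on BSA, and SNORD13P1 was dim, with 3.15 on rLCC111 and 3.25 on BSA. The copy SNORD13P2 stood apart, with 7.68 on rLCC111 and 6.33 on BSA. The measured difference is 1.34, but the BSA level is below the limit of silent genes. The rLCC111 level of SNORD13P2 was 2.10-fold above that limit, a value from 1 array with no error estimate. Among the sensory receptor genes the highest difference was 1.53. Parent and copies share sequence, so signal could cross between them, and a signal from a pseudogene copy does not show a working U13. SNORD13P2 lies within the span of FOXK1, a forkhead transcription factor gene, which had 9.70 on rLCC111 and 9.74 on BSA.

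The 2 measured U14 genes, whose RNA is needed to form the small-subunit rRNA, lie in HSPA8, the gene of a constitutive chaperone. SNORD14C had 11.64 on rLCC111 and 11.58 on BSA, and SNORD14E had 8.31 on rLCC111 and 8.20 on BSA, with HSPA8 itself at 13.64 on rLCC111 and 13.59 on BSA. None of these values differed by more than 0.11. SNORD44 and SNORD95 are in use as reference RNAs in PCR of small RNAs. SNORD44 had 10.09 on rLCC111 and 10.10 on BSA, and SNORD95 had 10.01 on rLCC111 and 9.86 on BSA. The genes SNORD3A (U3), SNORD118 (U8), SNORD22 (U22), SNORD48, SNORA73A and SNORA73B (U17) and the other U14 genes had no sequence of their own among those with 1 symbol and are not analysed here.

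SNORD41 was the member with the largest fall. Its RNA guides methylation of the large-subunit rRNA, and its level was 10.32 on rLCC111 against 11.62 on BSA, a difference of -1.30 or 0.406-fold. Both values are far above the limit of 6.61. The host TNPO2, which encodes a nuclear import receptor, had 10.35 on rLCC111 and 10.48 on BSA, a difference of -0.14, so that guide and host differed by 1.16 in their shifts. No other measured member lies in TNPO2.

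SNORA75 was the only H/ACA gene at 2-fold. It encodes the U23 RNA, a pseudouridine guide of the small-subunit rRNA, and lies with SNORD20 and SNORD82 in NCL, the gene of nucleolin, an abundant protein of the nucleolus. SNORA75 had 9.04 on rLCC111 against 8.03 on BSA, a difference of 1.01 or 2.01-fold, just inside the 2-fold threshold. It fell short of 2-fold under each of 3 other scalings, with differences of 0.93 to 0.99. SNORD53, at 1.92-fold, lay just outside it. The neighbours of SNORA75 in the same host were dim and went opposite ways: SNORD20 had 5.86 on rLCC111 and 5.46 on BSA, and SNORD82 had 4.93 on rLCC111 and 5.22 on BSA. NCL itself had 12.10 on rLCC111 and 12.19 on BSA, a difference of -0.08. The members of NCL thus spanned 1.30, the widest span among the 28 hosts with at least 2 measured members.

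Other higher members above the limit came from several hosts. SNORD53, which lies in WDR43, a gene for a factor of small-subunit assembly, had 9.18 on rLCC111 and 8.24 on BSA, a difference of 0.94. WDR43 had 11.30 on rLCC111 and 11.45 on BSA, so its small difference of -0.16 ran the other way. SNORA54 in NAP1L4, the gene of a histone chaperone, had 7.04 on rLCC111 and 6.21 on BSA, a difference of 0.84. Its BSA level is below the limit, and its rLCC111 level was 1.35-fold above the limit. SNORA74A, the U19 gene, had 8.80 on rLCC111 and 8.20 on BSA (1.52-fold), and lies within both MATR3 and SNHG4, of which MATR3 had 10.85 on rLCC111 and 10.91 on BSA. SNORD43, a methylation guide of the small-subunit rRNA in RPL3, had 9.85 on rLCC111 and 9.26 on BSA, a difference of 0.59 that just passes 1.5-fold. SNORA74A and SNORD43 fell short of 1.5-fold after median centring (0.52 and 0.51) and after quantile normalization (0.54 and 0.57). SNORD117 in DDX39B, at 7.63 on rLCC111 and 7.06 on BSA, SNORD15B in RPS3, at 9.28 on rLCC111 and 8.83 on BSA, and SNORA50A in CNOT1, at 9.49 on rLCC111 and 9.05 on BSA, stayed below 1.5-fold. The members SNORD56B (4.94 on rLCC111 and 4.02 on BSA), SNORA70B (5.70 on rLCC111 and 4.96 on BSA) and SNORA30 (6.56 on rLCC111 and 5.96 on BSA) passed 1.5-fold with both arrays below the limit, so their folds rest on dim signal.

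On the lower side, SNORA22 and SNORD33 followed SNORD41. SNORA22, a guide of the large-subunit rRNA, had 9.27 on rLCC111 and 9.98 on BSA, or 0.609-fold, and was the only H/ACA gene at least 1.5-fold lower. It lies within the spans of the pseudogene CCT6P1 and the noncoding gene LINC03006, the second of which was at 5.87 on rLCC111 and 5.88 on BSA. SNORD33 had 11.86 on rLCC111 and 12.49 on BSA, or 0.643-fold. The next members above the limit, among them SNORD45A, SNORD60, SNORD79, SNORD32A, SNORD57 and SNORD116-6, had differences between -0.40 and -0.34, all short of 1.5-fold. SNORD57 lies in NOP56, the gene of a core protein of the C/D particles, and had 11.21 on rLCC111 and 11.57 on BSA, while the other member in that host, SNORA51, had 6.72 on rLCC111 and 6.69 on BSA.

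RPL13A holds 4 measured C/D genes, and all 4 were lower on rLCC111. In cultured rodent cells RNAs of this cluster are known as mediators of oxidative stress under lipid overload. SNORD33 is given above, and SNORD32A had 10.17 on rLCC111 and 10.54 on BSA. SNORD34 had 9.21 on rLCC111 and 9.40 on BSA, and SNORD35A had 10.00 on rLCC111 and 10.18 on BSA. The median of the cluster was -0.28, from -0.64 to -0.18, and all 4 remained below 0 under median centring, quantile normalization and removal of a trend with level. RPL13A itself had no sequence of its own to set beside them.

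GAS5, a noncoding gene that accumulates when growth stops, holds 7 measured C/D genes, and its 7 members also lay at or below 0. Their median was -0.12, from -0.39 for SNORD79 (9.24 on rLCC111 and 9.63 on BSA) to 0.00 for SNORD44. SNORD78 had 10.12 on rLCC111 and 10.26 on BSA, SNORD75 had 9.74 on rLCC111 and 9.86 on BSA, SNORD74 had 11.57 on rLCC111 and 11.66 on BSA, and SNORD81 had 9.73 on rLCC111 and 9.77 on BSA. SNORD77, the other member, was below the limit with 5.35 on rLCC111 and 5.68 on BSA. Only SNORD79 and SNORD77 differed by more than 0.3, and under quantile normalization or removal of a trend 6 of the 7 were below 0. The noncoding host SNHG17 had its members SNORA71C (10.48 on rLCC111 and 10.74 on BSA), SNORA71D (12.08 on rLCC111 and 12.16 on BSA) and SNORA71A (10.02 on rLCC111 and 10.03 on BSA) at or below 0, while the host was at 10.11 on rLCC111 and 10.02 on BSA. In SNHG1, SNORD28 and SNORD30 had differences of -0.21 and -0.18.

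Members of other hosts went different ways. In RABGGTB, which encodes a subunit of the enzyme that prenylates Rab proteins, SNORD45A had 11.21 on rLCC111 and 11.60 on BSA. Its relatives SNORD45B, at 8.23 on rLCC111 and 8.08 on BSA, and SNORD45C, at 8.49 on rLCC111 and 8.31 on BSA, were higher, and the host differed by -0.06. In RPL3, SNORD43 stood at a difference of 0.59, beside 0.13 for SNORD83A and 0.05 for SNORD83B. The members of RPL23A (SNORD4A, SNORD42A, SNORD4B) and TBRG4 (SNORA5A, SNORA5B, SNORA5C) differed by no more than 0.14 and 0.07. Of 28 hosts with at least 2 measured members, 11 had all of them above 0, 4 had all below 0 and 13 were mixed or held a 0. This balance depended on the scaling. After median centring, where the median of all genes was -0.08, it turned, with 4 hosts all above 0 and 8 all below. It was 6 and 5 after quantile normalization, and 9 and 3 after removal of a trend with level. The span within a host had a median of 0.25, from 0.04 in SNHG1 to 1.30 in NCL.

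**Figure D3:**
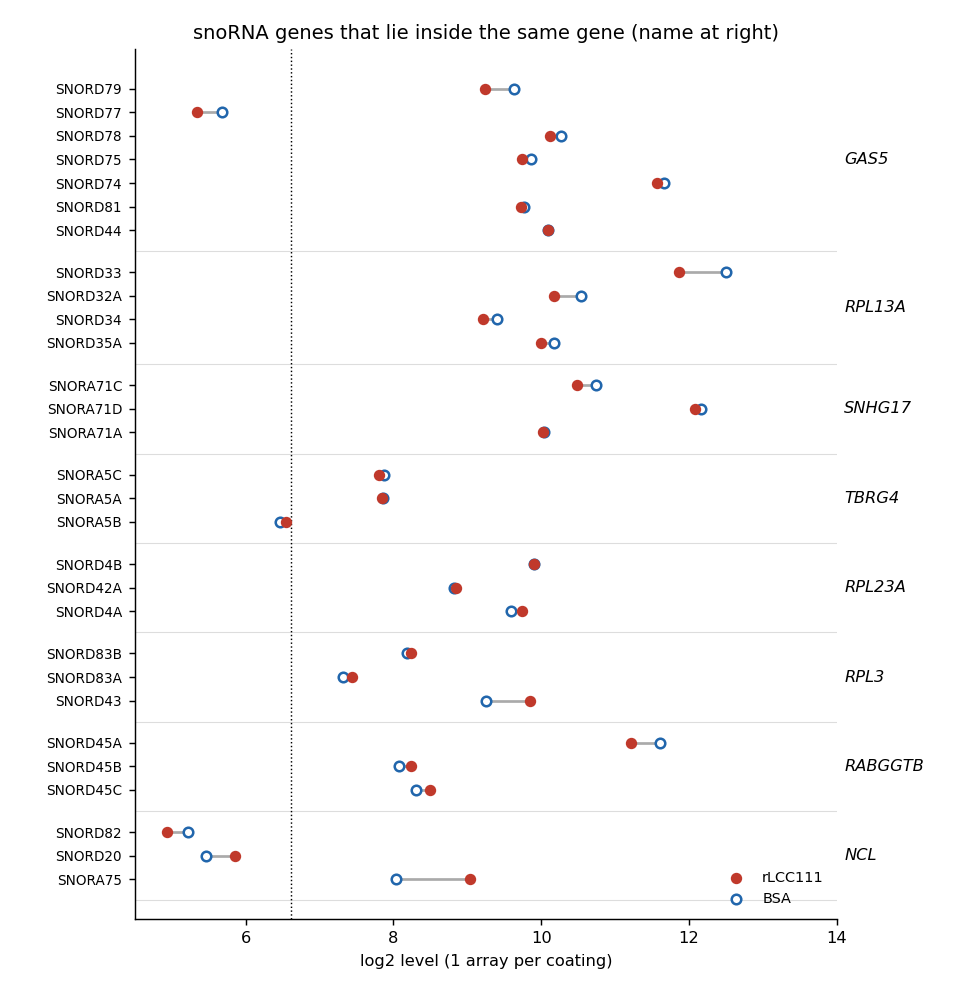
Log2 level of each member on rLCC111 (red) and BSA (open blue) in 8 hosts with 3 or more members, hosts named at right, with the limit of 6.61 as a dotted line. All members of RPL13A lie to the left on rLCC111, whereas in NCL and RABGGTB members of 1 host point in opposite directions.

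The start sites of these hosts are shown because many snoRNA hosts begin transcription at a run of pyrimidines, a feature of mRNAs for the translation machinery. Each line gives 100 bases before and 20 bases from the start of the gene in RefSeq (GRCh38.p14), 5′ to 3′ on the strand of the gene, with capitals for the longest run of C and T that touches the 5 bases on either side of the start.
RPL13A (chr19:49487508-49487627, plus strand): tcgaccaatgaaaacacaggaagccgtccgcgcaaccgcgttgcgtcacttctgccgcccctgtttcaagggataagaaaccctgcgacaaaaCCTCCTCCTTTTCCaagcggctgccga
GAS5 (chr1:173869026-173869145, minus strand): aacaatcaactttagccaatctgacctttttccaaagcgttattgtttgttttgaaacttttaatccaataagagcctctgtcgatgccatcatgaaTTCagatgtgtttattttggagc
NCL (chr2:231464465-231464584, minus strand): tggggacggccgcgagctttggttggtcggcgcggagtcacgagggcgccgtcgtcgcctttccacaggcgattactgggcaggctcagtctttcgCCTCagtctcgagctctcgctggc
TNPO2 (chr19:12723913-12724032, minus strand): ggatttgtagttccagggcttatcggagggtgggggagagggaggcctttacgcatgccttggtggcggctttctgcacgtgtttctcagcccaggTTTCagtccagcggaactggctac
RPL13A has a run of 14 pyrimidines, GAS5 of 3 and NCL and TNPO2 of 4 each. A run of at least 6 was found in 42 of 80 host genes with a start in the table, or 52.5%, beside 7435 of 27305 genes (27.2%) in all. By kind of host it was 11 of 12 ribosomal protein genes, 9 of 13 noncoding genes and 22 of 55 other protein-coding genes. The run is a property of the annotated start, which may not be the one used in HT1080 cells, and a match says nothing of what controls the gene.

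The balance of members above and below 0 differed by kind of host. The 32 members in ribosomal protein genes had a median of 0.05, with 22 above 0 and 10 below. The 25 in noncoding host genes outside the imprinted clusters had a median of -0.06, with 7 above 0 and 17 below. Of those below, GAS5 holds 7, SNHG17 holds 3 and SNHG1 holds 2, and members of 1 host are not separate observations. The 78 in other protein-coding genes had a median of 0.12, with 55 above 0 and 20 below, and hold 7 of the 9 members at least 1.5-fold higher. The kinds of host also differ in level, with median member levels on rLCC111 of 8.82, 9.62 and 6.80 in the same order. Of all genes with a mean level above 9, 2534 lay above 0 and 3592 below. What part level has in this balance was not tested. After median centring the counts above 0 were 14 of 32, 5 of 25 and 44 of 78, so the ribosomal protein hosts lose their surplus under that scaling. H/ACA genes were above 0 in 31 of 38 cases in other protein-coding genes and in 10 of 12 in ribosomal protein genes, but in 1 of 5 in noncoding genes. C/D genes were above 0 in 16 of 27, 12 of 20 and 6 of 19 cases in the same kinds of host. In other protein-coding genes the C/D median of 0.15 was above the H/ACA median of 0.12, unlike over all hosts. This order rests on dim members. Among those above the limit on at least 1 array the C/D median was 0.13 and the H/ACA median 0.22.

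Host genes differed less between coatings than the guide RNA genes inside them. In 92 members, outside the imprinted clusters, the host was settled and had a sequence of its own, in 70 hosts. The median size of a difference was 0.14 for members and 0.10 for hosts. None of the 70 hosts reached 1.5-fold, a count near the shares over all genes, 1.08% higher and 0.543% lower. Host differences ran from -0.44 to 0.25, whereas members of the same pairs ran from -1.30 to 1.34. The 1.34 is that of SNORD13P2, a pseudogene copy paired with FOXK1 by position alone and below the limit on BSA. The member lay above its host in 79 pairs and below it in 13, with a median of member minus host of 0.17. After quantile normalization it was 70 and 22, with a median of 0.11. This median was 0.19 for H/ACA genes (41 of 46 above their host), 0.14 for C/D genes (27 of 34) and 0.19 for Cajal body RNA genes (11 of 12). Member and host were on the same side of 0 in 40 pairs and on opposite sides in 48. Across the pairs Pearson's r was 0.17 and Spearman's rho 0.20, given as a description, since pairs share both arrays and some share a host. Of the 70 hosts 59 had a mean level above 9, where the median over all genes was -0.03. In 58 of the 92 pairs member and host were both above the limit on at least 1 array. The member lay above its host in 51 of these and below it in 7.

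**Figure D4:**
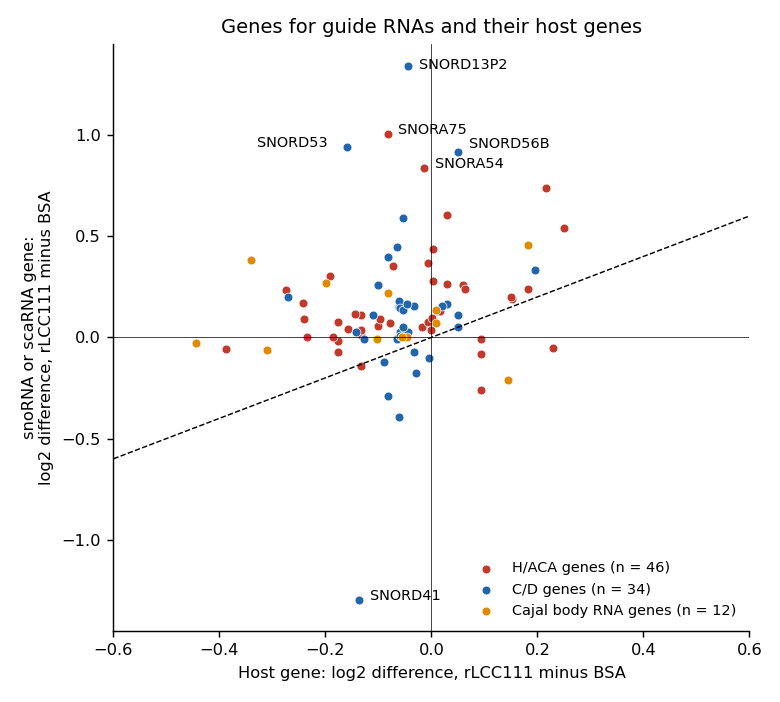
Difference in log2 level, rLCC111 minus BSA, of each member (vertical) against that of the host gene that contains it (horizontal), for 92 pairs coloured by type. The dashed line marks equal differences and the axes differ in scale; 79 of the 92 points lie above the line, and hosts keep within -0.44 and 0.25.

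Where a member lies in overlapping genes no single host was assigned. SNORD21, at 7.02 on rLCC111 and 6.68 on BSA, lies within RPL5 and within DIPK1A, the gene of a kinase-like protein. RPL5 had 13.46 on rLCC111 and 13.42 on BSA, but DIPK1A had 7.82 on rLCC111 and 7.23 on BSA, a difference of 0.59 that just passes 1.5-fold. DIPK1A is the one gene around a member that reached 1.5-fold, and it was chosen after its value was seen. Median centring lowers every difference by 0.08, and DIPK1A then falls short of 1.5-fold.

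The tandem C/D copies of the imprinted clusters differed little between coatings, but 38 of the 46 had neither array above the limit. SNORD115 and SNORD116 lie as repeats in SNHG14. In brain, SNORD115 is known to pair with the serotonin receptor mRNA HTR2C, and loss of SNORD116 is a cause of Prader-Willi syndrome. All 20 measured SNORD115 copies were below the limit on both arrays, with mean levels between 3.18 and 4.08 and differences between -0.17 and 0.07. Of the 20 measured SNORD116 copies 8 were above the limit on at least 1 array. SNORD116-15 had 11.88 on rLCC111 and 11.73 on BSA, SNORD116-14 had 10.78 on both, and SNORD116-20 had 9.96 on rLCC111 and 9.84 on BSA. The extremes were SNORD116-6, with 6.41 on rLCC111 and 6.76 on BSA, and SNORD116-22, with 5.29 on rLCC111 and 4.94 on BSA, both close to or below the limit. No copy of either family reached 1.5-fold, a count near the shares over all genes, 1.08% higher and 0.543% lower. The copies are near repeats, so their sequences may read one another's RNA. The 6 copies of SNORD113 and SNORD114 in MEG8 were all below the limit, with a lowest difference of -0.51 for SNORD114-2 (3.74 on rLCC111 and 4.25 on BSA) and a highest of 0.14 for SNORD114-3.

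**Figure D5:**
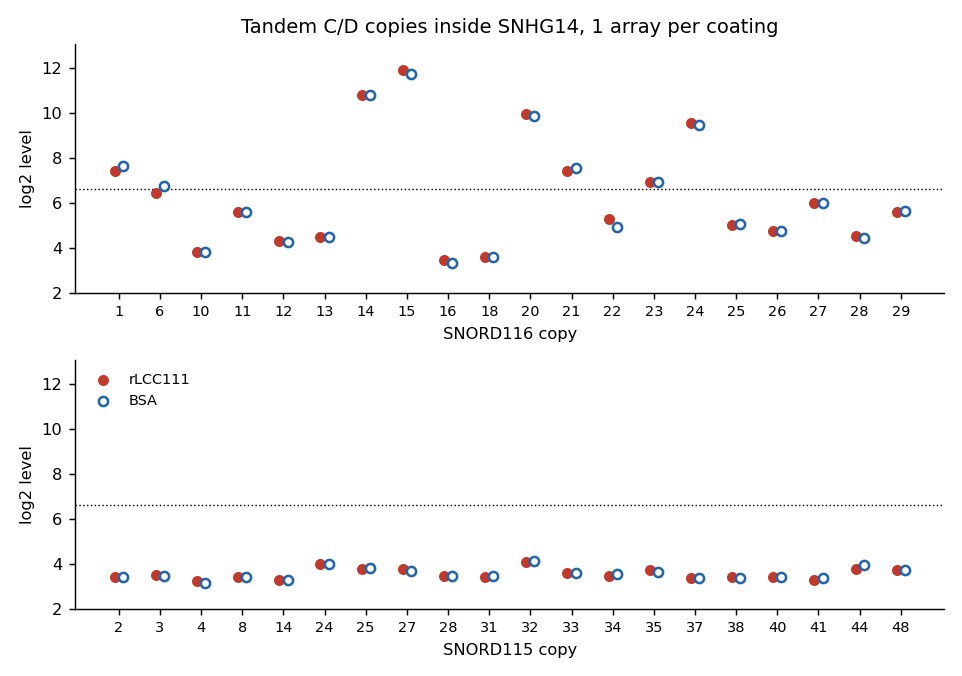
Log2 level on rLCC111 (red) and BSA (open blue) of 20 SNORD116 copies (upper panel) and 20 SNORD115 copies (lower panel), in the order of their copy numbers, with the limit of 6.61 as a dotted line. All SNORD115 points lie below the limit, 8 SNORD116 copies reach above it, and in both panels the coatings nearly coincide.

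Dispersed H/ACA copies could be followed across different hosts. The 6 measured SNORA70 copies lie in 6 hosts, and none was above the limit, with differences from -0.05 for SNORA70C to 0.74 for SNORA70B. The SNORA80 copies in 3 hosts were above the limit and above 0 under each scaling, with SNORA80A at 8.15 on rLCC111 and 8.02 on BSA, SNORA80B at 8.08 on rLCC111 and 7.90 on BSA, and SNORA80E at 7.71 on rLCC111 and 7.48 on BSA. SNORA38 in PRRC2A had 8.01 on rLCC111 and 7.66 on BSA, and SNORA38B in NOL11 had 10.27 on rLCC111 and 9.97 on BSA, while these hosts differed by -0.07 and -0.19. None of the last 5 copies reached 1.5-fold, beside 1.08% of all genes that were at least 1.5-fold higher.

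Among the 16 Cajal body RNA genes, which guide changes in spliceosomal RNAs, none reached 1.5-fold in either direction. Over all genes 1.08% were that much higher and 0.543% that much lower, so 0 of 16 is near these shares. The highest difference among the 16 was that of SCARNA4 in KHDC4, with 6.62 on rLCC111 and 6.16 on BSA, and the host had 10.65 on rLCC111 and 10.46 on BSA. SCARNA8 in HAUS6 had 7.53 on rLCC111 and 7.15 on BSA while its host, a gene of the augmin complex of the spindle, had 11.00 on rLCC111 and 11.34 on BSA. SCARNA12 in PHB2, the prohibitin gene, had 11.61 on rLCC111 and 11.34 on BSA, and SCARNA7 in KPNA4, an importin gene, had 10.13 on rLCC111 and 9.91 on BSA. The lowest was SCARNA9, a guide for the U2 RNA, with 6.40 on rLCC111 and 6.61 on BSA. Both extremes were close to the limit, SCARNA4 below it on BSA and SCARNA9 below it on rLCC111. SCARNA16 had 8.86 on rLCC111 and 8.58 on BSA and lies within both SNHG20 and SEC14L1. The last 77 of its 187 bases are shown as an example of an H/ACA end, because the microRNA hairpin MIR6516 of RefSeq (GRCh38.p14) is cut from this stretch, with the ACA box, 3 bases from the end, in capitals.
SCARNA16 (chr17:77089417-77089493, plus strand): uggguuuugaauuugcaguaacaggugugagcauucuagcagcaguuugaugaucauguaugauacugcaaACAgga

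The genes for proteins that bind, build and trim these RNAs stayed within 1.5-fold. Among the core proteins of C/D particles, FBL, the fibrillarin gene, had 11.67 on rLCC111 and 11.76 on BSA, and NOP58 had 11.43 on rLCC111 and 11.65 on BSA, while NOP56 and SNU13 had no sequence of their own. The H/ACA core genes were measured in full: DKC1, the dyskerin gene, had 10.76 on rLCC111 and 10.86 on BSA, GAR1 had 8.97 on rLCC111 and 9.13 on BSA, NHP2 had 10.45 on rLCC111 and 10.55 on BSA, and NOP10 had 11.41 on rLCC111 and 11.53 on BSA. These 6 genes all lay below 0 under each scaling, with differences between -0.21 and -0.09. Of 19 assembly and transport genes 3 were above 0 and 16 below, with a median of -0.14, from -0.37 for NAF1, an H/ACA assembly factor, to 0.21 for NCBP2, a subunit of the nuclear cap-binding complex. Of 19 processing and decay genes 5 were above 0 and 14 below, with a median of -0.16, from -0.35 for EXOSC8, an exosome subunit, to 0.26 for XRN1, the cytoplasmic exonuclease. None of these 44 genes reached 1.5-fold in either direction, where 1.08% of all genes were that much higher and 0.543% that much lower.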

How the data were processed

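RNA of HT1080 cells kept for 24 h on rLCC111 or BSA was measured on 1 array per coating, and the number of arrays limits the precision. The authors deposited log2 levels, made with RMA in Affymetrix Expression Console (version not given in the sources used here), which were used unscaled. The methods name limma, which has no residual degree of freedom here, so no test was run. Sequences were named from the platform annotation, updated by gene identifier to RefSeq (GRCh38.p14): of 33297 sequences 19460 have 1 symbol, and the 1754 with several, 76 of which name a member beside another gene, were not used. A host is a RefSeq gene that contains the member, regardless of strand, which the table lacks. Named genes are the 2-fold members, the 10 largest differences in each direction above the limit, cluster extremes and neighbours, hosts and genes fixed by role; further examples in the text were chosen after their values were seen. The members of 1 host are not reported singly here. Members and lists were chosen with earlier results of these data known. Counting was tested on simulated data. Alternatives covered 3 scalings, 2 level filters, the mean over sequences and platform symbols. Python 3.11.15, numpy 2.4.6, pandas 2.3.3, statsmodels 0.14.6 and matplotlib 3.10.9 were used.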

Additional observations from a re-analysis of the deposited data

How the results depend on the processing

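Results were recomputed under 9 alternatives, 7 of them planned and 2, without the SNORD113 to SNORD116 copies and without the SNORD13 pseudogene copies, chosen after seeing the data. No paired analysis was possible because each coating has 1 array. Of 163 values for types, hosts and counts 157 stayed within 0.1 log2 or 1.5 times the main count and 6 moved. This count is no measure of stability for the medians. Median centring lowers each difference by 0.08, less than the tolerance, so no median could count as moved under it. The H/ACA median fell from 0.09 to 0.01 there. Platform symbols could not move a member value either, since no member had another symbol on the platform. The count of members at least 2-fold higher, 2 as reported, was 1 under median centring, 1 under quantile normalization and 1 with a trend removed, since SNORA75 then fell below 2-fold (0.99 with the trend removed). It was 1 with both arrays above the limit and 1 without the SNORD13 pseudogene copies, since SNORD13P2 was left out. The count at least 1.5-fold higher, 9 as reported, was 4 with both arrays above the limit and 6 under median centring or quantile normalization, where SNORA30, SNORA74A and SNORD43 fell short. The median over all members turned to -0.05 under median centring and -0.02 under quantile normalization, where the median of all genes was -0.08 and -0.06. H/ACA minus C/D ran from 0.07 to 0.10. None of 36 named members moved by more than 0.09 under the 3 scalings. As median centring alone moves each of them by 0.08, this bound is no measure of their stability either. The medians of NCL, TBRG4 and MEG8 have no value under the level filters, which leave fewer than 3 members. The 79 members below the limit have signal too weak for their differences to be told from those of silent genes.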
